A study of Mus musculus with 12 samples.

Results

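The 10 genes described here are p53 stress targets together with the sestrins and Ddit4: Sesn1, Sesn2, Sesn3, Ddit4, Trp53inp1, Phlda3, Ccng1, Ccng2, Mdm2 and Ppm1d. They were taken from the array table by symbol, as probe sets annotated to a single gene symbol, with the brightest probe set kept where a gene had several. All 10 were found, out of 18820 genes measured. The rule used their names and no threshold on the values, but the names were chosen with earlier results of these data known, so the counts below are a description of these genes. The samples were hind limb skeletal muscle and heart of C57BL/6 mice that were 11 days old, either wild-type (Tk2+/+) or lacking thymidine kinase 2 (Tk2-/-), the mitochondrial enzyme that phosphorylates thymidine and deoxycytidine for mitochondrial DNA synthesis. Each of the 4 groups of tissue and genotype had 3 arrays, labelled as biological replicates, and the study set the genotypes against each other in each tissue. The knockout is not restricted to a cell type or tissue. RNA came from whole tissue, so fewer cells of a type and less RNA per cell cannot be told apart.

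The transcription factor p53 is activated by DNA damage, nucleotide shortage and other stresses, and induces genes that arrest the cell cycle, repair DNA, remove oxidants or trigger cell death, among them its own inhibitors. The sestrins and Ddit4 (also called REDD1) restrain mTORC1, the kinase complex that drives protein synthesis and growth when nutrients are plentiful. Several of these genes are also known targets of FoxO factors, the glucocorticoid receptor, HIF or ATF4, so they serve as readouts of fasting and hypoxia as well as of p53 in muscle.

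Promoter windows of these genes are shown because they hold, or lack, the short motifs of the factors named above. Windows of 300 bases, from 250 bases before to 50 after an annotated start, were taken from RefSeq (GRCm38.p6). They were found for 9 of the 10 genes, all except Trp53inp1, with a pair of starts for Sesn1. Each is written 5′ to 3′ on the strand of the gene, with a motif in capitals. In Ddit4 (chr10:59951721-59952020, minus strand) the capitals mark the HIF core ACGTG. In Sesn1 they mark a FoxO motif (GTAAACA, here on the opposite strand) in window 1 (chr10:41810324-41810623, plus strand), downstream of the start, and a p53 half-site in window 2 (chr10:41887189-41887488, plus strand). In Mdm2 (chr10:117710709-117711008, minus strand) the p53 half-site comes before the FoxO motif.
Ddit4: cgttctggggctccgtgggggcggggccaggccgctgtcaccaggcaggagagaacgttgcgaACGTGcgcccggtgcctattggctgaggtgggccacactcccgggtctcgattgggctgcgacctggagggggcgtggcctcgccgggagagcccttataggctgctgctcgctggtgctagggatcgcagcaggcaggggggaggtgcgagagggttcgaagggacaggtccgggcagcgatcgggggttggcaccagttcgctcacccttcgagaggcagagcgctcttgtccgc
Sesn1 window 1: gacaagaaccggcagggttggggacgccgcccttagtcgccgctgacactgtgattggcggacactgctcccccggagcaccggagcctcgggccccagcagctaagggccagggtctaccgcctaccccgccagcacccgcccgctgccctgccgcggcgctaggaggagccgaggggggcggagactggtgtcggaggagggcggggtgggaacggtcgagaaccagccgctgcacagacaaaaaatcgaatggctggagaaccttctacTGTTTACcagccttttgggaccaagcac
Sesn1 window 2: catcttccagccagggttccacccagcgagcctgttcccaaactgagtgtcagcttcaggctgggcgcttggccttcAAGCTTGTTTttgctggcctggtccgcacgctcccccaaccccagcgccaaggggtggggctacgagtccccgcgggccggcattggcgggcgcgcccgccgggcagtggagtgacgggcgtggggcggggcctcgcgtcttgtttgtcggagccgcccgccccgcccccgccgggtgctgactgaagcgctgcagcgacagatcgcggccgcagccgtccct
Mdm2: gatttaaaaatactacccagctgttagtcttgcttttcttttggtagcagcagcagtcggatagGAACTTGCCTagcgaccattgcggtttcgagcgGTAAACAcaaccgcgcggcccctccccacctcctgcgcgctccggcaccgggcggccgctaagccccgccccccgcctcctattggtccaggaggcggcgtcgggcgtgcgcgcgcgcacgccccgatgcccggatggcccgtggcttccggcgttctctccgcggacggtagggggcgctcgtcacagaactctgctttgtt

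On either strand, a p53 half-site was present in the windows of 4 genes, Sesn1, Mdm2, Ccng1 and Ppm1d, against 8.36% of all 32851 windows. A full p53 element, taken as a pair of half-sites with a gap of at most 13 bases, was in 0 of the 9 genes and in 0.0731% of windows. The FoxO motif was in Sesn1 and Mdm2 and in 3.65% of windows, and the HIF core was in Ddit4 and in 19.6% of windows. The ATF4 motif TGATGNAA, found in 3.97% of windows, and the glucocorticoid receptor motif (the glucocorticoid response element), found in 0.00913%, were in 0 of the 9 genes. No motif overlapped another in the windows printed. A match is a description of the letters and not evidence of binding, and p53 sites that lie outside such windows, as in introns, were not searched.

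Signals are given as deposited, as intensities on a linear scale. Fold changes are differences of log2(signal + 16), which understate the change of dim genes such as Sesn2, and each has its standard error (SE) and the p of limma's moderated test adjusted by the Benjamini-Hochberg method over all 18820 genes, with 0.05 as the threshold. Mean signal over an array was between 147 and 168 in the 3 Tk2-/- heart arrays and between 202 and 252 in the other 9. The median log2 fold change of all genes was accordingly -0.28 in heart, and -0.68 over the 4051 genes with a mean signal above 256, against -0.02 and 0.09 in skeletal muscle. Heart values are therefore also given after quantile normalization within each tissue, which sets the median of all genes near 0. Tk2 itself had signals of 62.9, 68.5 and 63.1 in Tk2+/+ muscle and of 64.7, 44.1 and 48.7 in Tk2-/- muscle, which overlapped. In heart the Tk2 signals were 70.2, 73.6 and 81.8 in Tk2+/+ and 30.1, 46.3 and 31.7 in Tk2-/- mice, which did not overlap. The position of the Tk2 probe set relative to the deletion was not known here, so a remaining signal does not speak against the genotype labels.

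**Figure D1:**
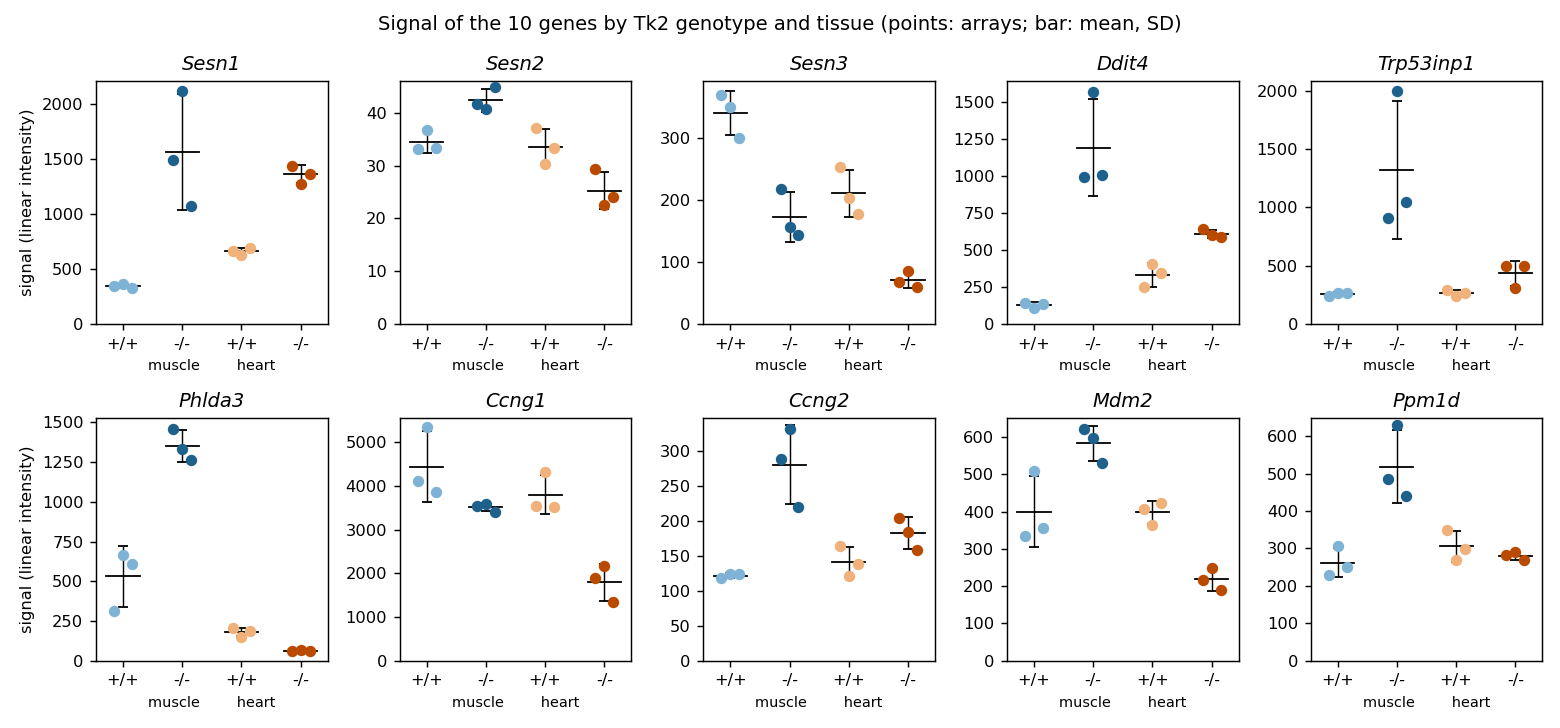
Signal (linear intensity) of each of the 10 genes on the 12 arrays, by Tk2 genotype in skeletal muscle (blue) and heart (orange); points are arrays, and bars the mean and SD of 3 arrays. Sesn1 and Ddit4 were higher in Tk2-/- arrays of both tissues, whereas Phlda3 and Mdm2 lay above their Tk2+/+ arrays in muscle and below them in heart.

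In skeletal muscle 7 of the 10 genes were higher in Tk2-/- than in Tk2+/+ mice, namely Ddit4, Trp53inp1, Sesn1, Phlda3, Ccng2, Ppm1d and Mdm2. Sesn3 was lower, and Sesn2 and Ccng1 did not pass the threshold. Among all genes 11.6% were higher and 10.9% lower. The median log2 fold change of the 10 genes was 1.01, against -0.02 for all genes. For each of the 10 genes the 3 Tk2-/- arrays lay apart from the 3 Tk2+/+ arrays, above them in 8 and below them in 2, while 16.9% of all genes had all Tk2-/- arrays above and 18.8% all below. After quantile normalization 7 were higher and 2 lower, Ccng1 joining Sesn3, against 13.9% and 14.8% of all genes. With Benjamini-Hochberg adjustment, the methods' t-test, which estimates the spread of each gene alone, kept 1 of the 7, Ddit4 (adjusted p = 0.034). The other 6 had adjusted p between 0.0503 (Sesn1) and 0.18 (Mdm2), and the decrease of Sesn3 had 0.078.

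In heart 3 genes were higher in Tk2-/- mice (Sesn1, Ddit4 and Trp53inp1) and 5 lower (Sesn3, Phlda3, Ccng1, Mdm2 and Sesn2), while 1.99% of all genes were higher and 49.0% lower. The share of lower genes among the 10 was thus close to that of all genes. All Tk2-/- arrays lay above in 3 of the 10 and below in 5, as did 3.16% and 53.3% of all genes. Their median log2 fold change was -0.19, against -0.28 for all genes. After quantile normalization, when 13.8% of all genes were higher and 17.8% lower, 5 of the 10 were higher, Ccng2 and Ppm1d being added, and Sesn3, Phlda3 and Ccng1 remained lower, with a median of 0.25. The direction for Ppm1d in heart turned between these scalings, from -0.11 to 0.57.

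**Figure D2:**
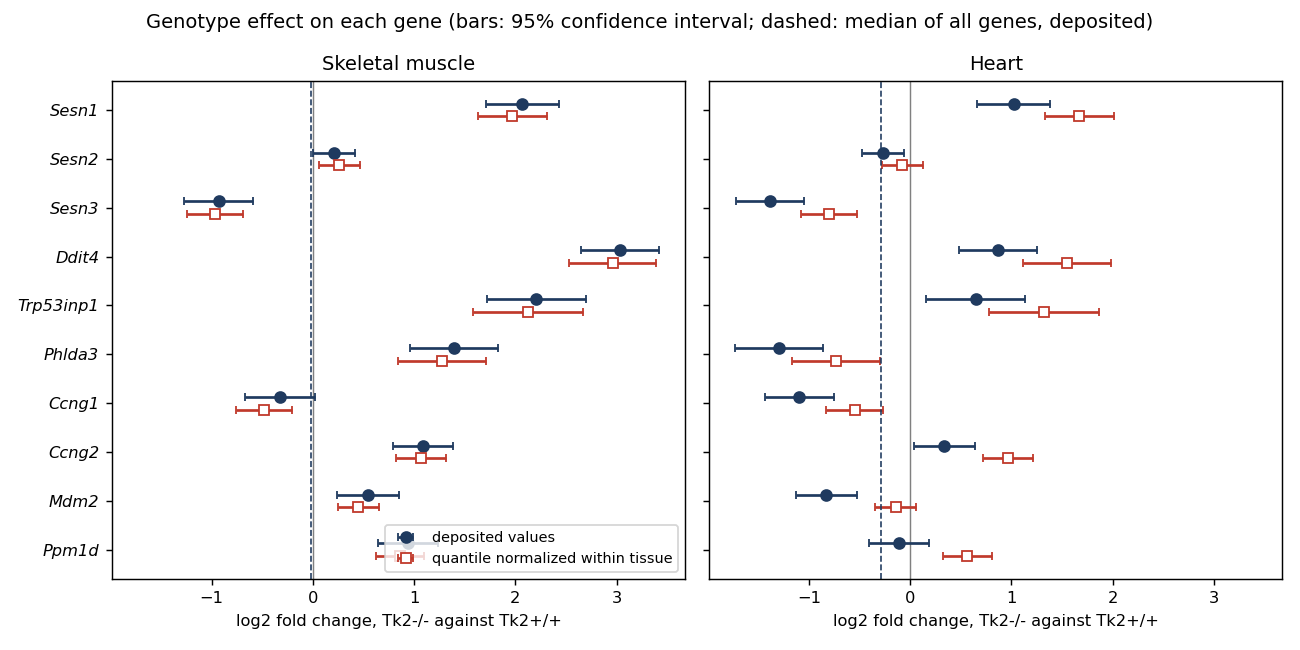
Log2 fold change of Tk2-/- against Tk2+/+ for each gene in skeletal muscle (left) and heart (right), from the deposited values (filled) and after quantile normalization within each tissue (open), with unadjusted 95% confidence intervals; the dashed line is the median of all genes on deposited values. The values barely move in muscle, while in heart each value shifts to the right, Sesn1 from 1.02 to 1.67 and Ppm1d from -0.11 to 0.57.

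Ddit4, the stress-induced inhibitor of mTORC1 that acts through the TSC complex, had the largest fold change of the 10 genes in muscle. Its signals were 141, 109 and 137 in Tk2+/+ muscle and 997, 1571 and 1011 in Tk2-/- muscle. In heart they were 247, 406 and 347 in Tk2+/+ and 641, 600 and 590 in Tk2-/- mice. All Tk2-/- arrays were above all Tk2+/+ arrays in both tissues, with replicate 2 of Tk2-/- muscle highest of the 12. Its log2 fold change was 3.03 (SE 0.18, adjusted p = 4.4e-08) in muscle and 0.87 (SE 0.18, adjusted p = 0.00074) in heart, where it was 1.15 above the median of all genes and 1.55 (adjusted p = 0.00013) after quantile normalization. Among Tk2+/+ mice the level was lower in muscle than in heart (log2 difference -1.25, adjusted p = 5.7e-05), whereas in Tk2-/- mice muscle was the higher of the tissues, at a mean of 1193 ± 328 (SD, n = 3) against 610 ± 26.8.

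Sesn1, a p53 and FoxO target whose protein binds GATOR2 and keeps mTORC1 inactive when leucine is low, was raised in both tissues. Its signals were 344, 364 and 331 in Tk2+/+ muscle and 1492, 2116 and 1075 in Tk2-/- muscle. In heart they were 664, 626 and 690 against 1439, 1275 and 1364. The groups did not overlap in either tissue. The spread among Tk2-/- muscle arrays, an SD of 524, was wide beside that of Tk2+/+ muscle (16.7). The log2 fold change was 2.07 (SE 0.17, adjusted p = 9.3e-07) in muscle and 1.02 (SE 0.17, adjusted p = 0.00011) in heart, or 1.67 after quantile normalization in heart (adjusted p = 1.6e-05). Tk2+/+ heart had the higher level of the Tk2+/+ tissues (log2 difference of muscle against heart -0.90, adjusted p = 0.00059), and the Tk2-/- levels of muscle and heart overlapped, with means of 1561 and 1359.

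Sesn3, the FoxO-responsive sestrin that restrains mTORC1 and supports Akt signalling, went the other way. Its signals were 370, 351 and 300.5 in Tk2+/+ muscle and 219, 157 and 144 in Tk2-/- muscle. Heart gave 253, 203 and 178 in Tk2+/+ and 67.1, 85.4 and 60.2 in Tk2-/- mice. Every Tk2-/- array was below every Tk2+/+ array of its tissue, and the lowest levels of all were in Tk2-/- heart. The gene fell by 0.93 on the log2 scale in muscle (SE 0.16, adjusted p = 0.00057) and by 1.39 in heart (SE 0.16, adjusted p = 6.0e-06), a decrease that was -0.80 (adjusted p = 0.00055) after quantile normalization. Sesn1 and Sesn3 thus changed in opposite directions in both tissues.

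Sesn2, the sestrin best known as an ATF4 and p53 target and as a leucine sensor, was dim, with signals between 22.5 and 44.8 on the 12 arrays. In muscle it gave 33.2, 36.8 and 33.4 in Tk2+/+ and 41.6, 40.7 and 44.8 in Tk2-/- mice, and the groups did not overlap, but the log2 fold change of 0.21 (SE 0.10) did not pass the threshold (adjusted p = 0.14). In heart it gave 37.1, 30.3 and 33.4 against 29.3, 22.5 and 24.02, all Tk2-/- arrays being lower. The log2 fold change of -0.27 (SE 0.10, adjusted p = 0.029) was close to that of the median gene and was -0.08 (adjusted p = 0.58) after quantile normalization. The call on deposited values was lost without replicate 1 or 3 of Tk2+/+ heart, or replicate 2 or 3 of Tk2-/- heart.

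Trp53inp1, a p53-induced nuclear protein linked to cell death and autophagy, gave 240.0, 265 and 266 in Tk2+/+ muscle and 912, 1996 and 1049 in Tk2-/- muscle. In heart its signals were 289, 241 and 269 in Tk2+/+ and 501, 310 and 495 in Tk2-/- mice. The groups did not overlap in either tissue, though replicate 2 of Tk2-/- heart was close to the Tk2+/+ arrays. Replicate 2 of Tk2-/- muscle was the highest of the 12 arrays. On the log2 scale it rose by 2.21 (SE 0.23, adjusted p = 8.8e-06) in muscle and 0.65 (SE 0.23, adjusted p = 0.027) in heart, where it was 1.32 (adjusted p = 0.0016) after quantile normalization. The heart call on deposited values was lost when replicate 2 or 3 of Tk2+/+ heart, or replicate 1 or 3 of Tk2-/- heart, was left out.

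Phlda3, a p53 target that competes with Akt for membrane lipids, had opposite changes in the tissues. In muscle its signals were 314, 668 and 608 in Tk2+/+ and 1459, 1332 and 1261 in Tk2-/- mice, so that replicate 1 of Tk2+/+ muscle was well below its group. In heart they were 203, 149 and 189 in Tk2+/+ and 63.4, 70.2 and 58.2 in Tk2-/- mice. No groups overlapped. In muscle the log2 fold change was 1.39 (SE 0.20, adjusted p = 0.00017), in heart -1.29 (SE 0.20, adjusted p = 7.6e-05), and the latter was -0.73 (adjusted p = 0.015) after quantile normalization. Wild-type muscle was already above wild-type heart, by 1.41 on the log2 scale (adjusted p = 5.6e-05).

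The cyclin G genes, atypical cyclins of which Ccng1 is a long-known p53 target and Ccng2 a FoxO target that slows the cell cycle, differed from each other. Ccng1 signals were 4115, 5361 and 3858 in Tk2+/+ muscle, 3549, 3578 and 3408 in Tk2-/- muscle, 3552, 4314 and 3528 in Tk2+/+ heart and 1885, 2175 and 1337 in Tk2-/- heart. Its Tk2-/- arrays were lower than all Tk2+/+ arrays in both tissues, by a narrow margin in muscle. The log2 fold change was -0.32 (SE 0.16, adjusted p = 0.19) in muscle and -1.09 (SE 0.16, adjusted p = 4.2e-05) in heart. After quantile normalization it was -0.48 (adjusted p = 0.012) and -0.55 (adjusted p = 0.0062), so that Ccng1 passed as lower in muscle on that scale.

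Ccng2 signals were 117, 124 and 123 in Tk2+/+ muscle and 288, 331 and 219.9 in Tk2-/- muscle, with no overlap. In heart they were 164, 121 and 138 against 204, 183 and 158, and the groups overlapped. Ccng2 rose by 1.09 on the log2 scale (SE 0.14, adjusted p = 5.4e-05) in muscle. In heart the value of 0.34 (SE 0.14) missed the threshold (adjusted p = 0.057), but it was 0.62 above the median of all genes and 0.97 (adjusted p = 7.4e-05) after quantile normalization.

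Mdm2 and Ppm1d are negative feedback genes of p53: Mdm2 is the ubiquitin ligase that degrades p53, and Ppm1d (Wip1) the phosphatase that switches p53 and its kinases off. Mdm2 signals were 336, 509 and 356 in Tk2+/+ muscle and 621, 598 and 531 in Tk2-/- muscle. In heart they were 406, 365 and 423 against 217, 249 and 189. Neither pair of groups overlapped, with replicate 2 of Tk2+/+ muscle only just under the lowest Tk2-/- array. Mdm2 had a log2 fold change of 0.55 (SE 0.14, adjusted p = 0.012) in muscle, a call lost without replicate 1 or replicate 3 of Tk2+/+ muscle. In heart it was -0.83 (SE 0.14, adjusted p = 0.00016), and -0.14 (adjusted p = 0.27) after quantile normalization, so the heart call rested on the scaling.

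Ppm1d signals were 229, 306 and 251 in Tk2+/+ muscle and 486, 629 and 441 in Tk2-/- muscle. In heart they were 350, 269 and 299 against 282, 291 and 268, and the Tk2-/- arrays lay within or just under the Tk2+/+ range. The log2 fold change was 0.94 (SE 0.14, adjusted p = 0.00018) in muscle and -0.11 (SE 0.14, adjusted p = 0.56) in heart, which became 0.57 (adjusted p = 0.0019) after quantile normalization. A second, dimmer Ppm1d probe set had means of 34.2 in Tk2+/+ and 53.5 in Tk2-/- muscle and of 35.3 and 29.5 in heart.

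The difference of the genotype effect, muscle minus heart, was tested in the same model. It was above 0 and past the threshold for 9 of the 10 genes and below 0 for 0, all except Sesn3, where 41.3% of all genes passed as higher and 1.39% as lower. The median difference was 1.05 over the 10 genes, 0.30 over all genes and 0.79 over the 4051 genes with a mean signal above 256. On quantile-normalized values, with 5.97% and 4.54% of all genes past the threshold, 3 of the 10 were higher and 0 lower. These were Phlda3, at 2.68 on deposited values (SE 0.29, adjusted p = 3.0e-05) and 2.01 after quantile normalization (adjusted p = 0.0011), Ddit4, at 2.17 (SE 0.26, adjusted p = 5.4e-05) and 1.41 (adjusted p = 0.0085), and Mdm2, at 1.37 (SE 0.20, adjusted p = 0.00018) and 0.59 (adjusted p = 0.014). Sesn1 had a difference of 1.05 (adjusted p = 0.0025) that became 0.30 (adjusted p = 0.44), and Trp53inp1 one of 1.56 (adjusted p = 0.0014) that became 0.80 (adjusted p = 0.18). The difference for Sesn3 turned from 0.46 (adjusted p = 0.12) to -0.17 (adjusted p = 0.61).

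**Figure D3:**
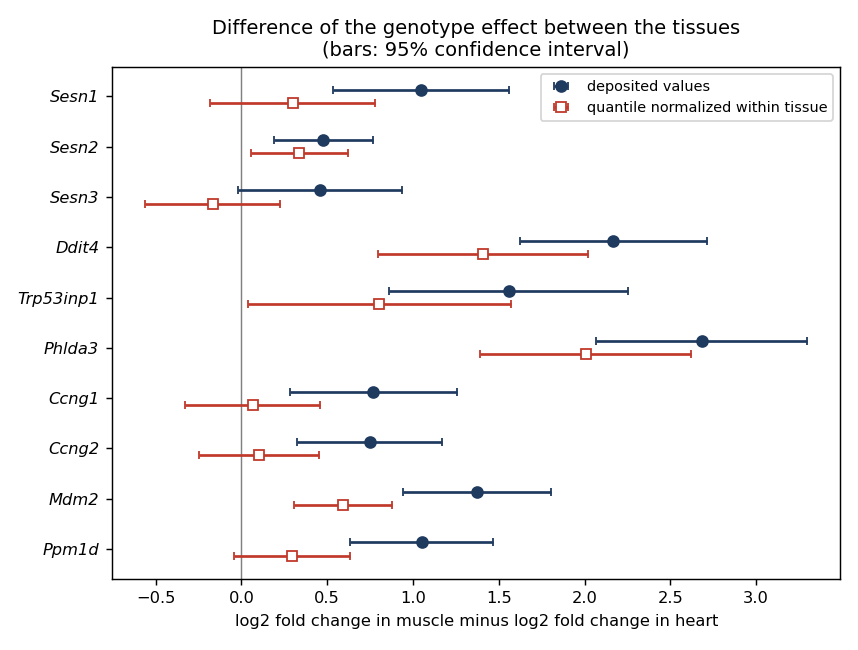
Log2 fold change in skeletal muscle minus that in heart for each gene, from the deposited values (filled) and after quantile normalization within each tissue (open), with unadjusted 95% confidence intervals. Phlda3, Ddit4 and Mdm2 passed on both scales, and Ccng1, Ccng2 and Sesn3 lie near 0 on the quantile-normalized scale.

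Between the wild-type tissues 2 of the 10 genes were higher in muscle than in heart (Phlda3 and Sesn3) and 2 lower (Ddit4 and Sesn1), with 30.6% of all genes higher and 18.4% lower. The median log2 difference was -0.03 over the 10 genes and 0.12 over all genes. Trp53inp1 (-0.05, adjusted p = 0.88) and Mdm2 (-0.01, adjusted p = 0.94) had means within a few percent of each other in the tissues, 257 against 266 and 400.1 against 398. This comparison used the Tk2+/+ arrays that also served as controls above.

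Other p53 targets were measured for 23 of 25 listed genes. In muscle 10 were higher and 1 lower in Tk2-/- mice, with a median log2 fold change of 0.11, where 11.6% of all genes were higher and 10.9% lower. After quantile normalization the counts were 11 and 1, against 13.9% and 14.8% of all genes. Cdkn1a, the p21 inhibitor of cyclin-dependent kinases, rose from 563 ± 26.8 to 2592 ± 145 (SD, n = 3; log2 fold change 2.17, adjusted p = 2.0e-07). Eda2r, the ectodysplasin A2 receptor, rose from 110.1 ± 27.8 to 468 ± 156 (1.92, adjusted p = 1.6e-05). Gadd45a, a growth arrest gene, rose from 223 ± 25.1 to 566 ± 277 (1.18, adjusted p = 0.0028). Perp, a junction protein linked to apoptosis, rose from 38.5 ± 8.0 to 106 ± 52.5 (1.10, adjusted p = 0.0013). For Eda2r, Gadd45a and Perp the spread among Tk2-/- arrays was wide beside that of Tk2+/+ arrays. In heart 13 were lower, a share close to the 49.0% of all genes, and 2 were higher, Cdkn1a and the death receptor Fas, against 1.99%. Quantile normalization turned these counts into 7 higher and 3 lower, against 13.8% and 17.8% of all genes, and the median moved from -0.53 to -0.09.

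On deposited values, the p53 targets with the largest heart changes were decreases. Btg2, an antiproliferative gene, was at -1.05 on the log2 scale (adjusted p = 0.00018) and -0.36 after quantile normalization (adjusted p = 0.086). The death receptor Tnfrsf10b was at -1.02 (adjusted p = 5.9e-06) and -0.53 (adjusted p = 0.0015), and the kinase Plk3 at -0.99 (adjusted p = 0.00039) and -0.70 (adjusted p = 0.016). Plk2, at -0.94 (adjusted p = 0.00061), had -0.26 (adjusted p = 0.24) on the second scale. Cdkn1a, in contrast, was higher in heart too, at 0.49 (adjusted p = 0.014) and 1.17 (adjusted p = 0.00017). On the quantile-normalized scale the largest changes were increases, those of Cdkn1a, of Fas at 0.97 (adjusted p = 4.5e-05, and 0.39 with adjusted p = 0.0086 on deposited values) and of the ubiquitin ligase Siah1a at 0.81 (adjusted p = 0.00034). Fas and Siah1a were named after their values were seen.

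Of p53 and its regulators 16 of 18 listed genes were measured, p53 itself (Trp53) not being among the genes with a probe set of a single symbol. In muscle 6 were higher and 2 lower (11.6% and 10.9% of all genes), and 7 and 3 after quantile normalization (13.9% and 14.8%). Those with the largest changes were the p53 relative Trp63 (0.83, adjusted p = 0.0025), the p53 inhibitor Mdm4 (0.62, adjusted p = 0.0018) and the acetyltransferases Crebbp (0.59, adjusted p = 0.0019) and Ep300 (0.54, adjusted p = 0.0014). Heart had 0 higher and 12 lower (1.99% and 49.0% of all genes), but 6 and 3 on quantile-normalized values (13.8% and 17.8%). There the DNA damage mediator Trp53bp1 was at -1.03 (-0.57 on the second scale, adjusted p = 0.00019), the checkpoint kinases Chek2 and Chek1 at -0.98 and -0.89 (-0.86 and -0.78, adjusted p = 0.00050 and 0.0024) and the p53 kinase Hipk2 at -0.76 (-0.07, adjusted p = 0.58). Mdm4 turned from -0.31 (adjusted p = 0.046) to 0.36 (adjusted p = 0.015) on the second scale, Ep300 from -0.36 (adjusted p = 0.0074) to 0.33 (adjusted p = 0.0091) and Crebbp from -0.36 (adjusted p = 0.018) to 0.32 (adjusted p = 0.011). The largest increase of the list on that scale, named after its value was seen, was that of the p53-binding inhibitor Ppp1r13l (0.58, adjusted p = 0.00077).

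On the mTORC1 side, where the sestrins and Ddit4 act, 30 of 31 listed genes were measured. In muscle 8 were higher and 1 lower (11.6% and 10.9% of all genes), and 8 and 6 after quantile normalization (13.9% and 14.8%). Eif4ebp1, the translation repressor that mTORC1 phosphorylates, rose from 776 to 1782 (log2 fold change 1.18, adjusted p = 2.2e-05), the Rag regulator Flcn from 271 to 508 (0.87, adjusted p = 2.4e-05), Tsc1, a subunit of the TSC complex, from 210.4 to 362 (0.73, adjusted p = 0.00040) and the GATOR2 subunit Mios from 124 to 183 (0.50, adjusted p = 0.0023). In heart 1 was higher, Eif4ebp1 (0.76, adjusted p = 0.00023), and 24 lower (1.99% and 49.0% of all genes), while quantile-normalized values gave 7 and 6 (13.8% and 17.8%). The largest decreases there were those of the mTORC1 subunit Mlst8 (-1.10, and -0.66 on the second scale), the GATOR1 subunit Nprl2 (-1.03 and -0.46), the GATOR2 subunit Sec13 (-0.96 and -0.28) and the AMPK subunit Prkaa1 (-0.94 and -0.26), with adjusted p between 1.2e-05 and 2.3e-05 on deposited values and between 0.0015 and 0.025 after quantile normalization.

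Of the transcription factors known to act on these genes, 10 of 11 were measured. In muscle 6 were higher and 1 lower (11.6% and 10.9% of all genes), and 5 and 1 after quantile normalization (13.9% and 14.8%). Foxo1 rose from 297 to 919 (log2 fold change 1.53, adjusted p = 1.2e-05), Foxo3 from 161 to 412 (1.26, adjusted p = 2.2e-06) and Arnt, the partner of HIF proteins, from 629 to 1173 (0.88, adjusted p = 0.00016). Foxo6 fell from 88.9 to 41.7 (-0.86, adjusted p = 0.00081). In heart 1 was higher and 6 lower, the latter share close to the 49.0% of all genes (1.99% were higher), and 3 and 1 on quantile-normalized values (13.8% and 17.8%). Foxo3 was higher, at 0.60 (adjusted p = 0.00031) and 1.28 after quantile normalization (adjusted p = 7.2e-06). Nr3c1, the glucocorticoid receptor, was at -1.08 (adjusted p = 2.4e-05) and -0.41 (adjusted p = 0.0099), the oxidative stress factor Nfe2l2 at -1.05 (adjusted p = 7.7e-05) and -0.37 (adjusted p = 0.073), and Atf4 at -0.83 (adjusted p = 6.0e-05) and -0.15 (adjusted p = 0.30).

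**Figure D4:**
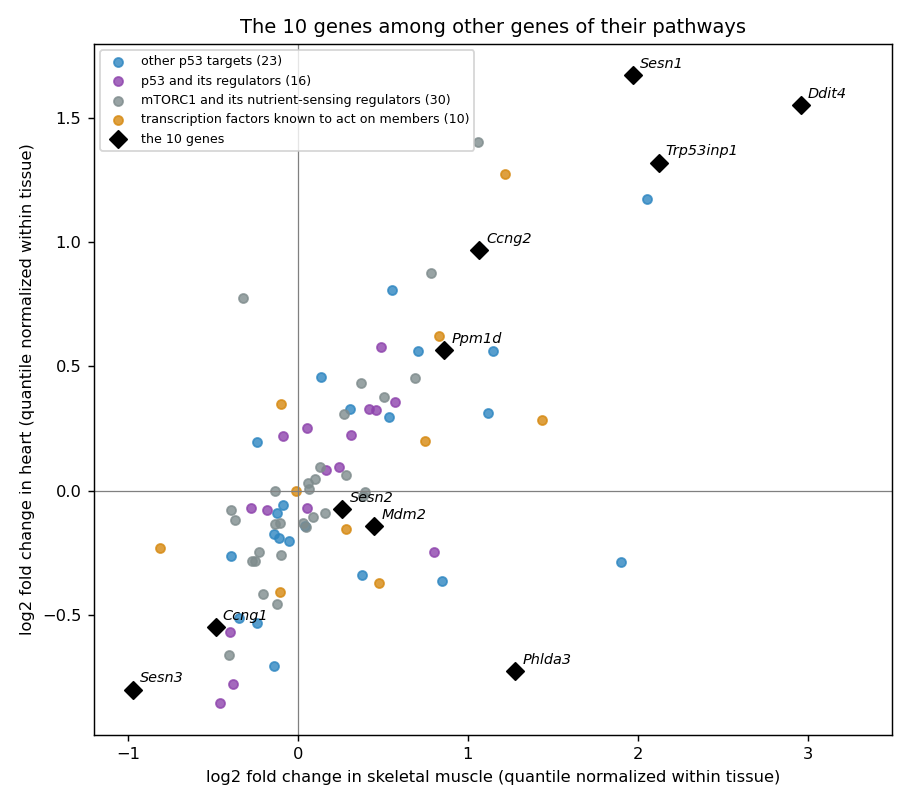
Log2 fold change of Tk2-/- against Tk2+/+ in skeletal muscle (horizontal) and heart (vertical), with arrays quantile normalized by tissue, for the 10 genes (diamonds) and the measured genes of 4 pathway lists (circles, number in the legend). Sesn1, Ddit4 and Trp53inp1 lie in the upper right, at 1.97, 2.96 and 2.12 in muscle, and Phlda3 in the lower right, at 1.28 in muscle and -0.73 in heart.

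The genes whose signal followed Ddit4 most closely over the 12 arrays, among 9271 genes with a mean signal above 64, were Glul, glutamine synthetase (Pearson r = 0.98), Mt1, a metallothionein (r = 0.97), and Asb11 (r = 0.97). For Trp53inp1 they were Doc2b (r = 0.99), Med13l (r = 0.98) and Cir1 (r = 0.98), and for Sesn1 Twf2, Crebrf and Foxo3 (r = 0.98, 0.98 and 0.97). These coefficients describe 12 points in 4 groups and are carried largely by the group means. Doc2b had means of 15.6 in Tk2+/+ and 183 in Tk2-/- muscle, and of 18.0 and 40.0 in heart. It thus passed the signal filter only through Tk2-/- muscle, the group where Trp53inp1 was highest too, and its r does not count as separate evidence. Glul rose from a mean of 908 to 6025 in muscle (log2 fold change 2.70, adjusted p = 4.5e-09) and from 1699 to 3473 in heart (1.04, adjusted p = 1.0e-05).

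Several lists of cell type markers moved along with the genotype. The 6 measured markers of cycling cells were all lower in Tk2-/- mice in both tissues, with a summed signal of 512 to 977 in Tk2+/+ and 91.8 to 234 in Tk2-/- muscle, and of 473 to 1145 and 60.4 to 64.5 in heart. Of 5 adipocyte markers 4 were higher and 1 lower in Tk2-/- muscle (summed signal 1782 to 2254 in Tk2+/+, 3179 to 4286 in Tk2-/-), and of 6 fibroblast markers 1 was higher and 4 lower (11783 to 13521 and 6869 to 8410). In heart all 6 fibroblast markers were lower (8189 to 10019 and 4833 to 5258), against 4 lower and 1 higher after quantile normalization. All 5 endothelial markers were lower there (5581 to 6539 and 2747 to 3594), against 3 after quantile normalization. Of all genes 49.0% were lower in Tk2-/- heart, and 17.8% after quantile normalization. In Tk2-/- muscle 11.6% of all genes were higher and 10.9% lower. The genes listed as cardiomyocyte markers summed to 7541 to 9380 in Tk2+/+ and 2975 to 3475 in Tk2-/- muscle, with 2 of 7 past the threshold as lower. Which cells of the muscle gave that signal was not tested. In Tk2-/- heart 2 of the 7 cardiomyocyte markers were lower, and 0 after quantile normalization. The 6 macrophage markers were all lower in Tk2-/- heart on both scales (1576 to 1945 and 624 to 727). In Tk2-/- muscle 2 of them were higher and 0 lower, and 1 and 0 after quantile normalization. All 8 fibre markers were also lower in Tk2-/- heart, and 7 after quantile normalization. In muscle 0 of the 8 fibre markers passed the threshold on either scale. Of 5 endothelial markers 1 was lower in Tk2-/- muscle, and 2 after quantile normalization. Fibre markers summed to at least 42896 in muscle and at most 7762 in heart, and cardiomyocyte markers to at least 31285 in heart and at most 9380 in muscle, as the labels name the tissues. The part of these shifts in the values of the 10 genes was not tested. Of the markers measured, 0 had a signal of 0 on any array.

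Within groups, replicate 2 of Tk2-/- muscle had the highest signal of its group for 6 of the 10 genes (Sesn1, Ddit4, Trp53inp1, Ccng1, Ccng2 and Ppm1d), and replicate 3 the lowest for 7. Replicate 2 of Tk2+/+ muscle was highest for 7, and replicate 3 of Tk2-/- heart lowest for 7. When each array was left out in turn, 6 or 7 of the 10 genes remained called higher in muscle, with the drop to 6 due to Mdm2, and 9 of the 10 differences between the tissues passed each time.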

How the data were processed

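RNA of 12 samples, 3 per tissue and genotype, had been hybridised to Affymetrix Mouse Gene 1.1 ST arrays. The authors deposited linear intensities, 1 for each probe set of each array. Affymetrix Expression Console and PLIER are credited in the submitters' processing notes, with no version, and how arrays were normalized is not given in the sources. Array medians and upper quartiles differ, which can move fold changes. The number of arrays limits the precision. The limma p-values use a spread within groups that is pooled over the 4 groups and moderated with all genes. Each gene therefore has the same SE in muscle and in heart, also where 1 group was more spread than another.

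Of 35556 probe sets, 21218 carried 1 gene symbol, 1881 several and 12457 none. RefSeq (GRCm38.p6) held 21185 of the 21218 by gene ID, 0 symbols changed, and the brightest probe set per symbol left 18820 genes. Members lay on probe sets of 1 symbol. Columns of per-sample values left unused numbered 0.

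limma 3.58.1 (R 4.3.3; lmFit, then eBayes) fitted the 4 group means of log2(signal + 16) jointly, leaving 8 residual degrees of freedom. Tests were 2-sided. Benjamini-Hochberg adjustment took in all 18820 genes, and an adjusted p under 0.05 counted as a call. The fit was tested on simulated data. Tables, promoter motifs and figures were made with Python 3.11.15, pandas 2.3.3, NumPy 2.4.6 and matplotlib 3.10.9. Named genes were the 10 members, Tk2, from each pathway list up to 4 genes with the largest change past the threshold per tissue, and the 3 genes most correlated with each of the 3 members that changed most in muscle. The members and lists were chosen with earlier results of these data known.

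Alternatives were median, upper-quartile and quantile scaling, cyclic loess, an offset of 1, dim genes left out (no group mean above 32), probe sets averaged, each tissue fitted alone, trend and robust priors, array weights, sex read from Xist (signal above 100), a replicate block, replicate number as a shared animal, the methods' t-test, and each array left out in turn. Quantile normalization with a replicate block was added after the values were seen. Replicate numbers did not pair samples: of 18 same-numbered pairs of arrays, 4 had a correlation of deviations over 0.1 (range -0.19 to 0.22). Many of these pairs crossed genotypes and could not be the same mouse. Xist was 1.45 in muscle and 1500 in heart for replicate 1 of Tk2+/+, and 1.6 and 982 for replicate 2 of Tk2-/-. Those numbers therefore did not mark the same mouse in both tissues. At the other numbers, Xist in muscle and heart lay on the same side of 100.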

Additional observations from a re-analysis of the deposited data

Results flagged for a closer look

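For 9 of the 10 genes the genotype effect differed between skeletal muscle and heart in the test of the difference itself (limma, adjusted over all 18820 genes), always with the higher value in muscle. Among all genes 41.3% passed as higher in muscle and 1.39% as lower. After quantile normalization within each tissue these shares were 5.97% and 4.54%. On the log2 scale the differences were 2.68 for Phlda3, 2.17 for Ddit4, 1.56 for Trp53inp1, 1.37 for Mdm2, 1.05 for Ppm1d, 1.05 for Sesn1, 0.77 for Ccng1, 0.75 for Ccng2 and 0.48 for Sesn2. The median was 0.30 over all genes and 0.79 over the 4051 genes with a mean signal above 256. After quantile normalization within each tissue the differences of Phlda3 (2.01), Ddit4 (1.41) and Mdm2 (0.59) passed the threshold, and those of Trp53inp1 (0.80), Sesn2 (0.34), Sesn1 (0.30), Ppm1d (0.30), Ccng2 (0.10) and Ccng1 (0.064) did not.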

How the results depend on the processing

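Counts of the 10 genes in heart and of the difference between the tissues depended on the scaling, and those in muscle hardly did. With quantile normalization within each tissue or over 12 arrays, or cyclic loess, 2 genes were lower in muscle, 5 were higher and 3 lower in heart, and 3 differences passed. Upper-quartile scaling gave the same 5, 3 and 3 in heart and for the difference. Median centring gave 4 lower genes between the wild-type tissues, and array weights 3. Quantile normalization over 12 arrays gave 3 higher there, Ccng1 being added (0.44, adjusted p = 0.012). The methods' t-test at a fold of 2 called 0 lower in muscle, and 1 higher and 3 lower in heart. With Benjamini-Hochberg adjustment it called 1 higher and 0 lower in muscle, and 0 higher between the wild-type tissues. The shares of all genes that this t-test called are not given here.

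The replicate block left muscle at 7 higher and 1 lower, and made Ccng2 pass in heart (log2 fold change 0.34, adjusted p = 0.046) and Sesn3 pass for the difference (0.46, adjusted p = 0.048). Ccng2 also passed in heart with median centring (0.52), with dim genes left out (0.34) and with array weights (0.40), each giving 4 higher genes, while Sesn2 missed the threshold with median centring and array weights, which left 4 lower. Array weights gave 10 differences, Sesn3 being added (0.50), and median centring 8, Sesn2 being lost (0.34). In Tk2-/- heart the array weights were 9.52 for replicate 1, 0.576 for replicate 2 and 0.582 for replicate 3. The weighted heart values and differences thus rest mostly on that replicate 1 for the Tk2-/- side. Quantile normalization with the replicate block gave 2 lower in muscle, 5 higher and 3 lower in heart and 3 differences. Sex read from Xist as a covariate changed no call of the 10 genes in any comparison. Xist signals were 1.45, 1.48 and 1193 in Tk2+/+ muscle and 1047, 1.6 and 930 in Tk2-/- muscle. In heart they were 1500, 0.02 and 1550 in Tk2+/+ and 779, 982 and 662 in Tk2-/- mice. Sex was thus not balanced between the genotypes, and no Tk2-/- heart array counted as male. With each array left out in turn, 6 to 7 genes were higher and 1 lower in muscle, 2 to 4 higher and 4 to 5 lower in heart, and 9 differences passed. Ccng2 passed in heart without replicate 2 or 3 of Tk2-/- muscle, replicate 1 of Tk2+/+ heart or replicate 3 of Tk2-/- heart.

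Some log2 values turned. In heart, Ppm1d was 0.072 with median centring, 0.57 with quantile normalization within tissues (with or without the block), 0.58 over 12 arrays, 0.58 with cyclic loess and 0.55 with upper-quartile scaling, where Sesn2 was 0.19. The Sesn3 difference was -0.17 within tissues (with or without the block), -0.16 over 12 arrays, -0.20 with cyclic loess and -0.14 with upper-quartile scaling, and the Ccng1 difference -0.030 over 12 arrays. Between the wild-type tissues, Sesn2 was -0.23 with median centring, -0.21 over 12 arrays, -0.023 with array weights and -0.021 to 0.077 with arrays left out. There Trp53inp1 was 0.053 over 12 arrays, 0.019 with upper-quartile scaling and -0.11 to 0.011 with arrays left out, Mdm2 was 0.082, 0.054 and -0.19 to 0.096, and Ccng1 was -0.041 with median centring. The cause was not tested. Scaling within tissues gives no value between them, so that comparison was left out there. Fold changes of Sesn2, whose signal lay near the offset of 16, are understated, and 3 arrays a group limit the precision of each value.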
